A study of Mus musculus with 4 samples.

Results

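A set of 40 cell cycle genes (all that the rule names, out of 32227 gene rows in the count matrices) were followed across the brain macrophages and endothelial cells of 4 single-cell RNA libraries. The genes were taken by symbol, 24 of them with their main expression in G2 and mitosis (G2/M members) and 16 in DNA replication (S-phase members). The list was drawn up with earlier results of these data known. All animals were wild-type mice that received an adeno-associated virus in the cortex at P0 or P1, so the controls were injected as well. The virus expressed either mCherry or Hevin, a secreted matrix protein, from GfaABC1D, a promoter active in astrocytes, so the cells profiled here were not the cells targeted by the vector. Cortices were taken at P15, dissociated with the transcription inhibitors actinomycin D and triptolide and the translation inhibitor anisomycin, and enriched for CD11b+ cells, and each group had 2 libraries prepared with PIPseq, a droplet method that counts unique molecular identifiers (UMIs). The number of animals behind a library is not in the labels, so p-values measure the spread between libraries only.

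A dividing cell first makes the enzymes that supply nucleotides and copy DNA (thymidine kinase, ribonucleotide reductase, the MCM helicase), and then the cyclins, kinases, motors and kinetochore proteins that carry it through mitosis. E2F factors drive many of the first group at the G1 to S transition, and complexes that bind CCAAT boxes and the cell cycle homology region drive many of the second. Microglia divide widely in the early postnatal cortex and slow down as the brain matures, and both microglia and the macrophages of the brain borders renew themselves locally.

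The libraries held 17877 (mCherry replicate 1), 10877 (mCherry replicate 2), 19855 (Hevin replicate 1) and 13077 (Hevin replicate 2) barcodes with 49781430 to 67832685 UMIs each, and 61371 cells were kept. Depth differed: the median was 3350 UMIs per kept cell in mCherry replicate 1 and 2329 in Hevin replicate 1, so shares of cells were taken after each cell had been thinned to 1000 UMIs. Between 1 and 7 barcodes were shared by any 2 libraries. Cells were classed by summed marker UMIs, with bounds set after the marker distributions had been seen. In the order just given, microglia numbered 15610, 9507, 7026 and 5999, Apoe-high cells 124, 54, 9268 and 5130, border macrophages 1072, 754, 911 and 703, and endothelial cells 269, 172, 277 and 152. The summed markers of each class were highest in the class named for them in each library (microglial markers 11538 to 14455 CPM in microglia and 3476 to 3797 in Apoe-high cells). The gates used these marker UMIs (Apoe alone for Apoe-high cells), so this order followed from the classing and is no check of it. Of the Apoe-high markers, Ms4a7 alone did not keep that order: in the mCherry libraries it stood at 710 and 641 CPM in Apoe-high cells and at 747 and 734 in border macrophages. Marker differences touch every Hevin comparison inside the Apoe-high class. The few mCherry cells of that class carried more border macrophage markers (summed CPM 8831 and 7484, against 4018 and 4001 in the Hevin libraries), and F13a1 stood at 936 and 843 CPM in them against 56.8 and 47.0. Those of mCherry replicate 1 also carried more MHC class II transcripts and Ccr2. In library order H2-Aa stood at 252, 38.1, 68.1 and 50.3 CPM in Apoe-high cells and Ccr2 at 73.6, 26.7, 6.45 and 8.48. Sex-linked transcripts separated the libraries as well: Xist stood at 539, 1046, 1.19 and 1210 CPM and Eif2s3y at 30.2, 0.02, 54.9 and 0.076 CPM, so that only replicate 2 of each group had a like pattern. Erythroid markers summed to 605 CPM in the microglia of mCherry replicate 1 and to 18.5, 8.2 and 2.2 CPM in those of the others; in endothelial cells the sums were 7659, 20.2, 4.2 and 1.2 CPM. Free RNA could not be gauged from a class that does not divide, since the 4 libraries held 26 neutrophils, of which 1 passed the bound for G2/M UMIs used below.

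The 40 genes differed in how far their UMIs were concentrated in few cells. At 1000 UMIs per cell, most G2/M members were concentrated in a small set of cells, and most replication genes were spread over cells without other cell cycle transcripts. The measure was the share of a gene's UMIs found in cells that held at least 5 UMIs of the other 39 members. Such cells made up 0.734% to 0.786% of the 38142 microglia, depending on which gene was left out. They held a median of 48.2% of a G2/M member's UMIs in microglia, and 22 of 24 G2/M members were above 25%. The S-phase members had a median of 9.66%, with 6 of 16 above 25%. These are pooled over libraries and are descriptions, since cells of a library are not replicates.

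Among the G2/M members the range ran from Pimreg, a mitotic regulator of the metaphase to anaphase step, with 75.0% of its UMIs in such microglia, and Hmmr, a spindle protein, with 67.7%, down to Cenpa and Cdk1. Mki67, the proliferation antigen Ki-67 that coats mitotic chromosomes, had 60.5%. Ube2c, the ubiquitin-conjugating partner of the anaphase-promoting complex, had 58.9%, and Top2a, which untangles replicated DNA, had 50.2%. Cenpa, the histone variant that marks centromeres, had 25%, and Cdk1, the kinase that drives entry into mitosis, had 18.2%. Among the S-phase members, Rrm2, the regulated subunit of ribonucleotide reductase, had 65.4% and Pclaf, which binds PCNA, 47.7%. Both lay with the G2/M members. Pcna, the sliding clamp of DNA polymerases, had 4.34%, and Mcm3, a subunit of the replicative helicase, 2.06%, although both were detected in many cells. In Apoe-high cells, nearly all of them from the Hevin libraries while most microglia came from the mCherry libraries, the medians were 39.3% for the 23 G2/M members and 7.14% for the 15 S-phase members that had at least 20 UMIs there. In border macrophages only 8 G2/M members had 20 UMIs. Their median was 31.8%, but Cenpa stood at 3.60% and Cdk1 at 8.11%, while Mki67 held 65.6%.

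**Figure D1:**
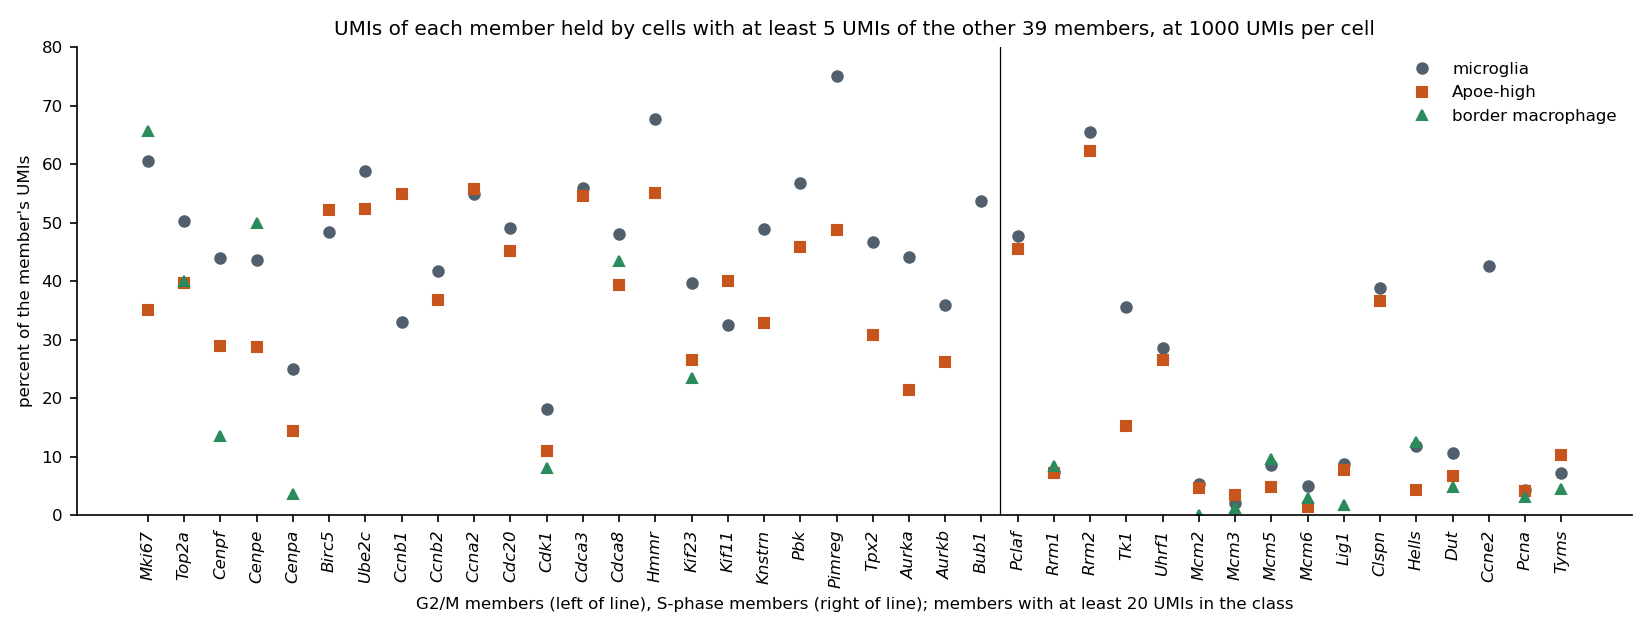
Percent of each gene's UMIs (y axis) held by cells with at least 5 UMIs of the other 39 genes, at 1000 UMIs per cell, pooled over the 4 libraries; circles are microglia, squares Apoe-high cells and triangles border macrophages, and genes with fewer than 20 UMIs in a class are not drawn. Most G2/M members lie above 25%, while Pcna (4.34% in microglia) and Mcm3 (2.06%) lie near the bottom; Cenpa and Cdk1 are low in border macrophages.

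Promoters were read next, for letters that the known regulators of these genes bind. RefSeq windows (build GRCm38.p6) of 250 bases before the annotated start were found for 19 of the 24 G2/M members and 15 of the 16 S-phase members. CCAAT, read on both strands, was present in the windows of 17 of the 19 G2/M genes (89.5%) and in 10 of the 15 S-phase genes (66.7%), against 37.5% of all 27025 genes with a window. The cell cycle homology region, TTTGAA or TTTAAA on either strand, was present in 11 of the 19 (57.9%) and 3 of the 15, against 28.1% of all genes. Both together were present in 10 G2/M genes (52.6%), against 10.1% of all genes. An E2F match (TTTGGCGC, TTTCCCGC or TTTCGCGC, which overlap each other in places) was present in 1 G2/M gene and 4 S-phase genes, against 1.78% of all genes. Median GC content was 56.4% and 56.8% in the member windows and 52.4% in all. These counts describe letters in a window and are not binding sites.

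The last 150 bases before the start are shown for 8 genes, chosen after their values were seen: Top2a, Cdc20 and Mki67 for concentrated G2/M genes, Cenpa and Cdk1 for G2/M genes found in more cells, Mcm6 for a spread replication gene with E2F matches, and Tk1 and Dut for the S-phase members that differ most between groups below. Capitals mark a CCAAT, cell cycle homology region or E2F match on either strand (5′ to 3′ along the gene's strand).
Top2a (chr11:99024190-99024339, minus strand): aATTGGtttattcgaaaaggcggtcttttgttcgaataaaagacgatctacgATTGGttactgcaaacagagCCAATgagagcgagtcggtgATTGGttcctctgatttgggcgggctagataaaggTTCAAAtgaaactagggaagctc
Cdc20 (chr4:118437344-118437493, minus strand): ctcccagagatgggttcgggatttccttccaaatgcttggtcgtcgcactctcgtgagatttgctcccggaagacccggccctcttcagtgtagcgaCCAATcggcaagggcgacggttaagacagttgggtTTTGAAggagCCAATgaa
Mki67 (chr7:135716380-135716529, minus strand): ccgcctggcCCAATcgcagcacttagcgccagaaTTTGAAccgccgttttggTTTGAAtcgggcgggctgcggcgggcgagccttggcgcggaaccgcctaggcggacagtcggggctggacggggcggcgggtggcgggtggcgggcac
Cenpa (chr5:30666736-30666885, plus strand): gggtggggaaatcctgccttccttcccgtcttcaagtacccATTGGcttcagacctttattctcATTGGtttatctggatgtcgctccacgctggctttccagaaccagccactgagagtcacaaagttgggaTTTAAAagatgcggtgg
Cdk1 (chr10:69352913-69353062, minus strand): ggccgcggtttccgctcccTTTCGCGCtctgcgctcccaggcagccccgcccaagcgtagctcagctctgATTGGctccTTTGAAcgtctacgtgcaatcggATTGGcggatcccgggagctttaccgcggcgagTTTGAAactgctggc
Mcm6 (chr1:128359706-128359855, minus strand): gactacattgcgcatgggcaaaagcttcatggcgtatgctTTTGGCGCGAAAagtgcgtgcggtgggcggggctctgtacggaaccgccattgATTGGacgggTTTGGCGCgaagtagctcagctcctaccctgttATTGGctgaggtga
Tk1 (chr11:117826015-117826164, minus strand): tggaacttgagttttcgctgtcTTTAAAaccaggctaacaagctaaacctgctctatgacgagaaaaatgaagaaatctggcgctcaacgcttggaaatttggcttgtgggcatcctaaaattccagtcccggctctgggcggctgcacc
Dut (chr2:125247365-125247514, plus strand): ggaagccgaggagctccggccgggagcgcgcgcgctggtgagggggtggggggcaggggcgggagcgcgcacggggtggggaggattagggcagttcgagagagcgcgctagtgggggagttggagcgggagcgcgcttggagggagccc
Top2a carried 4 CCAAT matches and Cdc20 2 in this stretch, each with 1 homology region match, and Mki67 carried 1 CCAAT and 2 homology region matches. Cenpa and Cdk1 carried the same pair of motifs although their transcripts were less concentrated, so the motif pair did not separate the concentrated G2/M genes from the others. Mcm6 had E2F and CCAAT matches and no homology region, Tk1 had 1 homology region match, and Dut had none of the letters searched.

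Summed over all kept cells of a library, 10 of the 24 G2/M members and 3 of the 16 S-phase members were higher in the Hevin libraries than in the mCherry libraries, and none was called lower. The comparison asked whether astrocyte Hevin goes with more cell cycle RNA in the CD11b+ fraction. Of 40 members, 13 were called higher and 0 lower by edgeR's quasi-likelihood test (Benjamini-Hochberg adjusted p below 0.05 over 19119 genes), where 11.1% of all genes were called, 6.85% higher and 4.3% lower. In 18 of the 24 G2/M members both Hevin libraries stood above both mCherry libraries, and in 6 the groups overlapped. The same count was not made over all genes, so it has no background. The median log2 difference was 0.55 over the G2/M members and 0.26 over the S-phase members, against 0.00 over all genes. These differences come from a fit with TMM scaling, which assumes that most genes do not differ. On plain library totals, an alternative chosen after seeing the data, the median over all genes was -0.11, and 935 genes were called higher and 1466 lower in place of 1309 and 822. On that scale 11 of the 13 members stayed called and 0 were lower, while Mki67 and Knstrn did not pass (edgeR adjusted p = 0.0651 and 0.0652). The medians were 0.43 over the G2/M members and 0.14 over the S-phase members. Of the G2/M values 24 were positive with TMM and 23 on library totals. A sum over all cells cannot tell more dividing cells from more RNA per cell, and it includes the change in the classes' shares.

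The values are counts per 1e6 UMIs of the library's sum (CPM), without TMM, given for mCherry replicates 1 and 2 and then Hevin replicates 1 and 2. The log2 differences beside them are those of the TMM fit, so the sign of a small one can differ from that of the CPM. Among the cyclins and their regulators, Ccnb2, a mitotic cyclin, stood at 6.28, 6, 10.3 and 9.17 CPM. Its log2 difference was 0.78 ± 0.13 (SE; edgeR adjusted p = 0.0111). Ccnb1, the other B-type cyclin, stood at 4.06, 3.18, 3.74 and 3.81 CPM with a log2 difference of 0.17 ± 0.18 (edgeR adjusted p = 0.646). The groups of Ccnb2 did not overlap, while both Hevin values of Ccnb1 lay between the mCherry values. Ccna2, the cyclin of S phase and G2, stood at 3.47, 3.49, 5.17 and 4.49 CPM (edgeR adjusted p = 0.0623). Cdk1, their kinase partner, stood at 20.5, 18.7, 23.4 and 21.3 CPM (edgeR adjusted p = 0.102). Ube2c stood at 9.03, 8.08, 14.4 and 11.5 CPM, and its log2 difference of 0.71 ± 0.15 passed the test (edgeR adjusted p = 0.0248). Cdc20, which activates the anaphase-promoting complex, stood at 5.70, 5.24, 7.96 and 5.50 CPM and did not pass (edgeR adjusted p = 0.268). For Cdc20 the second Hevin library lay between the mCherry libraries.

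Kinetochore and chromosomal passenger genes held 5 of the called members. Birc5 (survivin), the passenger complex subunit, stood at 7.61, 7.01, 12.8 and 10.2 CPM, a log2 difference of 0.77 ± 0.14 (edgeR adjusted p = 0.0187). Cdca8 (borealin), its partner, stood at 6.90, 6.19, 10.4 and 9.72 CPM with a difference of 0.73 ± 0.12 (edgeR adjusted p = 0.0124). Aurkb, the kinase of the same complex, stood at 3.40, 3.51, 4.43 and 4.03 CPM and did not pass (edgeR adjusted p = 0.167). In these 3 genes of the complex, the ones among the members, the Hevin libraries were above both mCherry libraries, and 2 of them passed. Cenpe, a kinetochore motor, stood at 4.18, 3.97, 6.91 and 6.07 CPM with a difference of 0.79 ± 0.15 (edgeR adjusted p = 0.0182). Cenpf, a kinetochore protein, stood at 8.83, 8.56, 14 and 11.7 CPM with 0.68 ± 0.13 (edgeR adjusted p = 0.0182). Cenpa stood at 14, 13.4, 20.9 and 18.1 CPM with 0.62 ± 0.11 (edgeR adjusted p = 0.0151). No library of one group overlapped the other in these genes, and Hevin replicate 1 was the highest in each.

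Of the spindle and chromosome genes, Kif23, a motor of the midbody, stood at 5.23, 4.33, 7.07 and 7.48 CPM with a log2 difference of 0.72 ± 0.15 (edgeR adjusted p = 0.024). Knstrn, a kinetochore and spindle adaptor, stood at 3.94, 3.97, 7.38 and 5.27 CPM with 0.80 ± 0.19 (edgeR adjusted p = 0.0457). Mki67 stood at 6.97, 5.96, 10.4 and 8.49 CPM with 0.66 ± 0.15 (edgeR adjusted p = 0.0383). Top2a, at 15.5, 12.1, 20.5 and 16.6 CPM, showed the same order of libraries but did not pass (edgeR adjusted p = 0.078). Kif11, the motor that separates the spindle poles, stood at 4.57, 3.69, 5.48 and 3.86 CPM and overlapped between groups (edgeR adjusted p = 0.49). The spindle factors Tpx2 (4.37, 3.69, 5.14 and 3.98 CPM) and Aurka (2.08, 2.14, 3.13 and 2.19 CPM) had edgeR adjusted p of 0.429 and 0.299. In both, the second Hevin library was close to the mCherry libraries. Bub1, a checkpoint kinase, stood at 1.54, 1.71, 1.48 and 1.71 CPM, with groups that overlapped. Its log2 difference was 0.09 ± 0.21 with TMM (edgeR adjusted p = 0.856) and -0.02 on library totals.

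Of the S-phase members, Tk1, Dut and Pclaf passed the test. Tk1, the thymidine kinase of the salvage pathway, about doubled. It stood at 6.57, 6.37, 12.7 and 12.3 CPM, with a log2 difference of 1.07 ± 0.11 in the TMM fit (edgeR adjusted p = 0.00195). Its replicates of a group were closer to each other than for most members. Dut, which removes dUTP from the nucleotide pool, stood at 9.88, 9.75, 17.3 and 13.4 CPM with 0.76 ± 0.14 (edgeR adjusted p = 0.0187). Pclaf stood at 7.27, 6.51, 11 and 9.34 CPM with 0.68 ± 0.14 (edgeR adjusted p = 0.024). Mcm3, Pcna, Rrm1 and Tyms did not pass. Mcm3 stood at 24.6, 24.5, 20.3 and 21.5 CPM, with both Hevin libraries below the mCherry libraries (-0.12 ± 0.08, edgeR adjusted p = 0.466). Pcna stood at 91.3, 96.1, 92.1 and 88.8 CPM, with groups that overlapped (0.07 ± 0.07, edgeR adjusted p = 0.663). Rrm1, the constitutive subunit of ribonucleotide reductase, stood at 12.6, 12.7, 11.5 and 13.3 CPM (0.09 ± 0.11, edgeR adjusted p = 0.709), and Tyms, the thymidylate synthase, at 16, 17, 15 and 17.1 CPM (0.08 ± 0.10, edgeR adjusted p = 0.735). The signs of these 3 small differences depend on the scaling: on library totals they were -0.05 for Pcna, -0.03 for Rrm1 and -0.04 for Tyms.

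Without Hevin replicate 1, the library with almost no Xist, the count of members called higher was 8, and it was 11 when every cell contributed 1000 UMIs. The part of the sex-linked difference between the libraries in these calls was not tested.

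**Figure D2:**
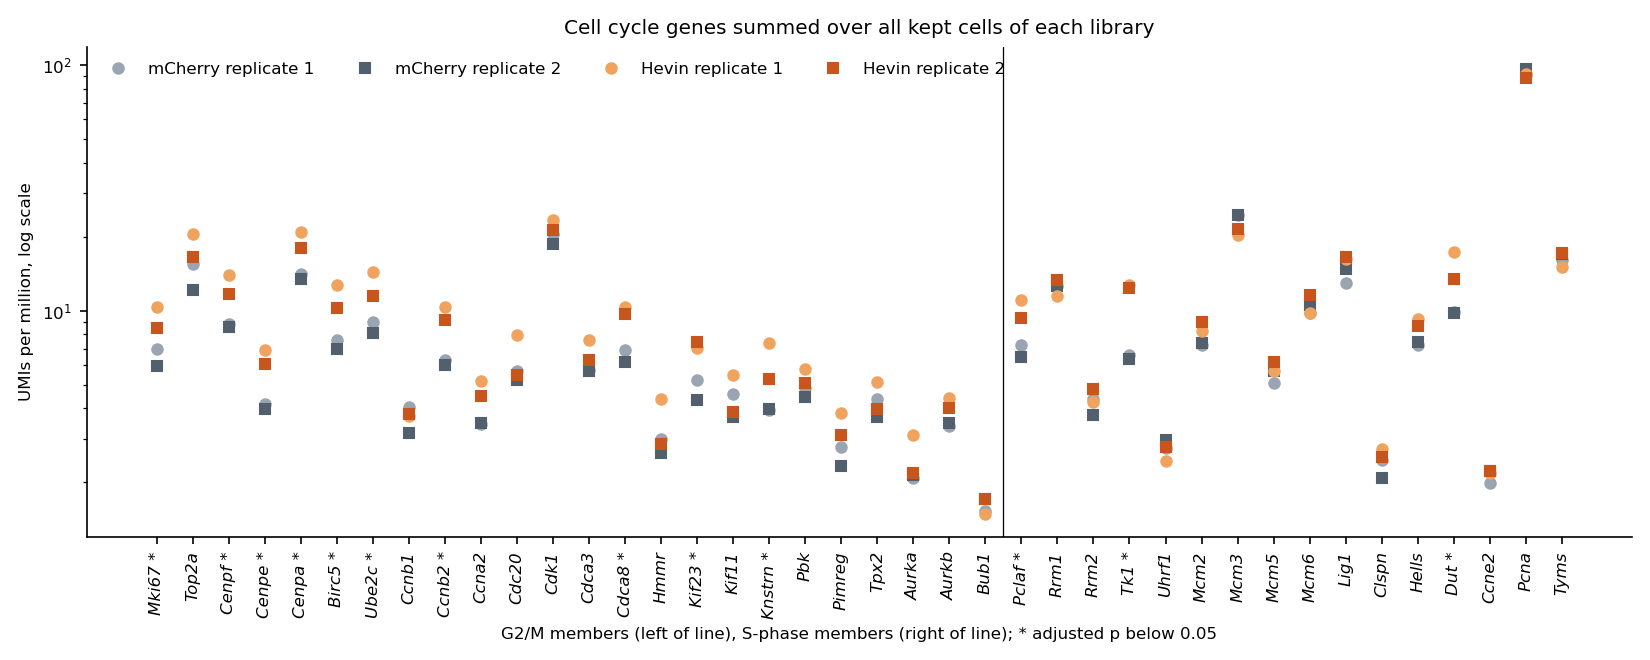
CPM of each gene (y axis, log scale) summed over all kept cells of each library, 1 point per library; grey points are mCherry and orange points Hevin, and an asterisk marks an edgeR adjusted p below 0.05. The orange points lie above the grey points in all 13 genes with an asterisk, and the 4 points of Pcna lie together near 90.

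Within single cell classes no member passed the test between the groups. In microglia 0 of 40 members were called (background 0.116% of 17178 genes, 0.105% higher and 0.0116% lower), and DESeq2 also called 0. An unadjusted edgeR p under 0.05 was found for 8 members and for 1106 of the 17178 genes. The median log2 difference over the members was 0.37 and 35 of 40 were positive, against a median of -0.01 over all genes. That median was 0.19 without Hevin replicate 1, and with the stricter gate it was 0.17 with 31 of 40 positive and 0 at an unadjusted p under 0.05. The cells gated as microglia also differed in markers between the groups. In library order Apoe stood at 1615, 1360, 4921 and 3498 CPM in them and Ms4a7 at 16.3, 10.6, 110 and 69.6. P2ry12 stood at 5349, 5419, 4082 and 4615 CPM. The part of these marker differences in the members' values was not tested. Top2a stood at 12.7, 9.67, 17.2 and 12.3 CPM in microglia, and Mki67 at 5.36, 4.78, 8.41 and 4.96 CPM. In both genes Hevin replicate 1 was high and Hevin replicate 2 lay close to the mCherry libraries. Cdca8 had groups that did not overlap (5.81, 5.34, 7.74 and 7.58 CPM; 0.51 ± 0.14, edgeR adjusted p = 0.49), as had Kif23 (3.70, 2.71, 5.26 and 5.19 CPM; 0.75 ± 0.21, edgeR adjusted p = 0.498). Tk1 stood at 6.48, 6.14, 9.25 and 7.80 CPM in microglia (0.48 ± 0.15, edgeR adjusted p = 0.549).

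In border macrophages 0 of the 35 members tested were called (background 0.403%, 0.143% higher and 0.26% lower), and DESeq2 called 0. An unadjusted edgeR p under 0.05 was found for 7 members and for 919 of 11909 genes. The 21 G2/M members tested had positive values there, 20 of them also on library totals. In CPM 13 of the 24 had both Hevin libraries above both mCherry libraries, 10 overlapped and 1 was below. This count was not made over all genes. Single cells weighed on these values: 1 of 703 border macrophages held 20.1% of the G2/M UMIs of Hevin replicate 2. Summed G2/M CPM were 182, 168, 281 and 214, and 173, 151, 252 and 172 without the top cell of each library. Without those cells the groups overlapped. The median over the 35 members was 0.47, against 0.12 without Hevin replicate 1 (23 of 36 positive) and was 0.01 at equal depth (6 of 11 positive). Kif23 stood at 6.60, 6.86, 14.5 and 13.3 CPM (1.09 ± 0.25, edgeR adjusted p = 0.184) and Ube2c at 2.48, 4.07, 8.09 and 9.20 CPM (1.47 ± 0.37, edgeR adjusted p = 0.247). In endothelial cells 0 of 35 were called (background 0.0459%, 0.0367% higher and 0.00918% lower), and DESeq2 called 0. Here 3 members and 563 of 10893 genes had an unadjusted edgeR p under 0.05, and the members' values were positive for 20 and negative for 15. In Apoe-high cells 0 of 40 were called (background 4.92%, 2.64% higher and 2.28% lower, which is 370 and 319 genes, against 202 and 586 on library totals), and DESeq2 called 0. Of the members 10 had an unadjusted edgeR p under 0.05, as had 2401 of 14011 genes. Here the mCherry side held 124 and 54 cells, and Cenpe, Ccna2, Knstrn, Bub1 and Ccne2 had no UMI in either mCherry library, so no fold is given for them.

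The test of whether the Hevin difference itself varied between classes called 1 of 40 members, for Apoe-high cells against microglia (background 7.1% of 16709 genes, 4.35% higher and 2.75% lower, which is 727 and 460 genes, against 240 and 758 on library totals). Cenpa stood at 47.3 and 22.9 CPM in the mCherry Apoe-high cells and 20.6 and 17.8 in the Hevin ones, against 10.3, 9.21, 13.8 and 10.1 CPM in microglia. The log2 interaction was -1.09 ± 0.32 (edgeR adjusted p = 0.0151), against a median of 0.18 over all genes. It was -0.37 without mCherry replicate 1. It was not called by DESeq2, with the stricter gate, with the top 5% of doublet scores removed, at equal depth, or without mCherry replicate 1, Hevin replicate 1 or Hevin replicate 2. The mCherry cells concerned were those with the higher border macrophage markers, and those of replicate 1 also had the higher MHC class II transcripts. The part of the markers in the result was not tested. For border macrophages against microglia 0 of 40 were called (background 0.228%), and for endothelial cells 0 of 40 (background 0%). An unadjusted edgeR p under 0.05 was found for 1 and 2 members, and for 796 of 15349 and 560 of 15637 genes.

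Counted as cells, a difference of the same direction appeared in the share of cells with at least 3 G2/M member UMIs at 1000 UMIs. Over all kept cells this share was 0.718% (128 of 17833), 0.737% (80 of 10849), 1.19% (230 of 19317) and 1.19% (155 of 13036). The Hevin libraries were thus above both mCherry libraries, with a difference of 0.462 percentage points (exact two-sided permutation test, p = 0.3333, the smallest that 2 against 2 libraries allow). The exact 95% Clopper-Pearson intervals, which cover counting error only, were 0.599% to 0.853%, 0.585% to 0.917%, 1.04% to 1.35% and 1.01% to 1.39%. Of the 128, 80, 230 and 155 cells past the bound, 21, 17, 70 and 50 met no class. Part of the difference over all kept cells thus lay outside the named classes. For the S-phase members the shares were 0.578%, 0.765%, 0.720% and 0.767%, and the groups overlapped.

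By class, the share of microglia past the G2/M bound was 0.628%, 0.621%, 1.01% and 0.767%. These were 98, 59, 71 and 46 dividing microglia, and the interval of Hevin replicate 2 (0.562% to 1.02%) overlapped those of both mCherry libraries. Among Apoe-high cells, 73 (0.788%) and 51 (0.994%) passed in the Hevin libraries. In the mCherry libraries 1 of 124 passed, and 0 of 54 (exact 95% interval up to 6.60%, and 5.56% as the limit that a count of 0 allows at 3 counts). Within a Hevin library the share of Apoe-high cells was lower than that of microglia in replicate 1 (0.788% against 1.01%) and higher in replicate 2 (0.994% against 0.767%), with overlapping intervals in both. The G2/M share of border macrophages was 0.560%, 0.398%, 1.32% and 0.711%, from 6, 3, 12 and 5 cells. That of endothelial cells was 0.372%, 0.581%, 1.44% and 1.97%, from 1, 1, 4 and 3 cells. In each of these the Hevin libraries were above the mCherry libraries, from so few cells that the intervals overlapped.

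Cells that met no class had larger G2/M shares than each of these 4 classes: 2.80% of 750, 4.72% of 360, 3.84% of 1822 and 4.77% of 1049. Of the 21, 17, 70 and 50 such cells, 20, 17, 67 and 45 had too few markers of any class, and 9, 10, 12 and 9 carried at least 5 UMIs of monocyte and MHC class II markers. Cells past the bound were thus unclassed more often than other cells in each library, and the class shares leave them out. Hevin libraries also had more unclassed cells (9.27% and 8.05% of kept cells, against 4.21% and 3.32%).

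Among microglia past either bound, 64.9%, 59.6%, 68.3% and 61.3% passed the one for G2/M genes. In Apoe-high cells of the Hevin libraries the share was 67.0% of 109 and 75.0% of 68. The first was below the microglia of its library (67.0% against 68.3%) and the second above (75.0% against 61.3%), so no order between the classes followed.

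**Figure D3:**
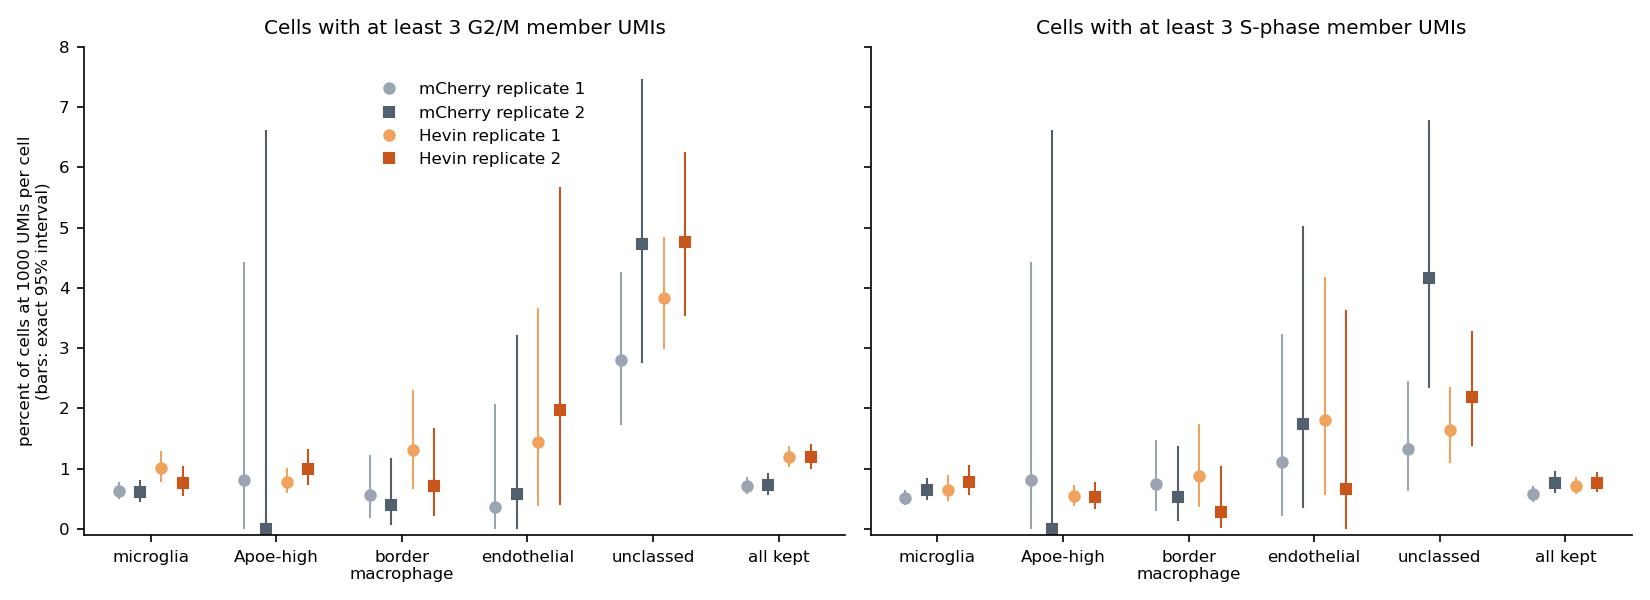
Percent of cells (y axis) with at least 3 UMIs of the G2/M genes (left) or S-phase genes (right) at 1000 UMIs per cell, by class and library; points are libraries and bars the exact 95% intervals. Over all kept cells both Hevin points stand at 1.19% for G2/M genes, above the mCherry points at 0.718% and 0.737%, while the S-phase shares overlap.

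Cells past the G2/M bound differed from the others of their class in more than the members. Hmgb2, a chromatin protein of dividing cells, stood at 2.84, 2.54, 2.52 and 2.54 UMIs per 1000 in microglia past the bound and at 0.114, 0.0995, 0.125 and 0.110 in the rest. Stmn1, which destabilises microtubules, stood at 1.61, 1.46, 1.38 and 1.48 against 0.0604, 0.055, 0.060 and 0.0538. Both were high in each library. Cdkn1a, the p21 inhibitor of cyclin-dependent kinases, stood at 0.398, 0.492, 0.394 and 0.261 UMIs per 1000 in microglia past the bound and at 0.0356, 0.0303, 0.0439 and 0.0317 in the rest. In the Apoe-high cells of the Hevin libraries Cdkn1a was 0.0822 and 0.0392 past the bound and 0.0197 and 0.0144 in the rest, lower than in microglia on both sides of the bound. P2ry12, the homeostatic microglial receptor, was lower in microglia past the bound (3.07, 3.46, 2.44 and 2.30) than in the rest (5.42, 5.44, 4.21 and 4.79). Other microglial genes followed it less. Tmem119 stood at 1.65, 1.59, 1.55 and 1.39 against 1.93, 2.02, 1.54 and 1.72, and was not lower in Hevin replicate 1. Cx3cr1 stood at 2.42, 1.71, 1.76 and 2.33 against 2.46, 2.83, 2.11 and 2.52. Apoe was lower in the Apoe-high cells of the Hevin libraries past the bound (23.8 and 24.2, against 36.2 and 37.7), while Ms4a7 differed less (0.849 and 1.16, against 1.08 and 1.22). These values come from cells picked by their members and carry no test.

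Cells with a UMI of Mki67 carried the other G2/M genes more often than cells without: Top2a was found in 35.7%, 47.1%, 28.7% and 34.2% of them, against 0.782%, 0.638%, 1.14% and 0.872% of the others. Pcna was found in 12.9%, 29.4%, 15.4% and 17.1% of them, against 8.63%, 8.82%, 7.99% and 7.89%. Mcm3 was found in 2.86%, 2.94%, 0.735% and 5.26% of the cells with Mki67 and in 2.36%, 2.44%, 2.02% and 1.98% of the others, so its order differed between libraries, from few cells with both.

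Few members were called different between Apoe-high cells and microglia. Against microglia, with the library as a term, 4 of 39 members tested were higher and 0 lower (background 35.7% of 13183 genes, 18.2% higher and 17.5% lower, which is 2398 and 2310 genes, against 2073 and 2896 on library totals; Bub1 was not tested). The median log2 difference over the members was 0.13. Dut stood at 10.5, 7.63, 18.3 and 15.3 CPM in Apoe-high cells and 7.95, 7.94, 12 and 9.32 in microglia (0.72 ± 0.10, edgeR adjusted p = 3.95e-05). Cenpa, with the values given above, was 0.92 ± 0.15 higher (edgeR adjusted p = 0.000114) and was above microglia in 4 of 4 libraries. Tk1 stood at 17.5, 0, 14.4 and 16.5 CPM in Apoe-high cells (0.90 ± 0.19, edgeR adjusted p = 0.00127). It was above microglia in 3 of 4 libraries, and the 54 cells of mCherry replicate 2 held none. Lig1, the ligase that joins Okazaki fragments, stood at 19.3, 19.1, 16.4 and 16.5 CPM, against 11.6, 13.3, 13.6 and 14.1 in microglia (0.36 ± 0.11, edgeR adjusted p = 0.0135). The mCherry libraries alone gave 1 call.

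In the Hevin libraries, which held nearly all Apoe-high cells, Tk1 was also set against microglia in cells without any other member UMI, at 1000 UMIs per cell. There Tk1 stood at 10.8 and 11.1 CPM in Apoe-high cells and at 3.73 and 2.11 in the microglia of the same libraries. Dut stood at 15.0 and 12.8 CPM, against 10.9 and 5.90. Both stood higher in such Apoe-high cells in both Hevin libraries, and the mCherry Apoe-high cells held no UMI of either in cells of this kind. Of the Tk1 UMIs of Apoe-high cells, 12.9% and 17.6% lay in cells with 5 UMIs of the other members, against 36.5% and 34.5% in the microglia of those libraries. Both genes were among the 13 called over all cells, and the Apoe-high class made up 0.695%, 0.498%, 47.2% and 39.4% of kept cells.

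Of 39 members 8 were higher in border macrophages than in microglia and 3 lower (background 58.2%, 28.8% higher and 29.4% lower), so the members were not in excess of genes at large. On library totals 9 were higher and 1 lower, the median over all genes moved from -0.01 to 0.12, and 4813 genes were higher and 2874 lower in place of 3795 and 3874. Cenpa stood at 40.01, 38.1, 42.8 and 44.2 CPM in border macrophages, against 10.3, 9.21, 13.8 and 10.1 in microglia, a log2 difference of 1.81 ± 0.13 (edgeR adjusted p = 5.92e-09). Cenpf stood at 17.7, 21.3, 18.9 and 20.5 CPM, against 7.42, 6.55, 12.6 and 7.21 (1.13 ± 0.18, edgeR adjusted p = 5.55e-05). Kif23, with the values given above, was 1.12 ± 0.21 higher (edgeR adjusted p = 0.00025). Each of these was above microglia in 4 of 4 libraries. Cdk1 stood at 31.3, 27.7, 32.7 and 35 CPM, against 18.3, 17.2, 20.4 and 18.7 (0.63 ± 0.12, edgeR adjusted p = 0.000203). Mki67 stood at 9.07, 6.61, 19.2 and 8.01 CPM (0.68 ± 0.24, edgeR adjusted p = 0.0232). Among replication genes, Mcm6, a helicase subunit, stood at 15.5, 20.8, 21.6 and 17.2 CPM, against 8.23, 8.26, 7.56 and 8.77 (1.04 ± 0.13, edgeR adjusted p = 2.99e-06). Rrm1 stood at 23.5, 23.1, 22.3 and 18.4 CPM, against 10.9, 10.7, 9.98 and 9.96 (0.93 ± 0.11, edgeR adjusted p = 1.87e-06). Lig1 was 0.38 ± 0.11 higher (edgeR adjusted p = 0.0056). Hevin and mCherry libraries overlapped in Cenpf, Mki67, Mcm6 and Lig1.

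In border macrophages without any other member UMI, pooled at 1000 UMIs, Cenpa stood at 39.7 CPM, close to its level in the whole class at that depth (40.4), and at 7.04 in microglia without other member UMIs. By library the border values of Cenpa were 34.2, 46.5, 33.8 and 48.1 CPM, each above the 7.58, 6.36, 6.69 and 7.15 of microglia. The pooled values of other members follow. Cdk1 stood at 30 against 14, Cenpf at 15.6 against 3.32, Kif23 at 8.69 against 2.01, Mcm6 at 18.5 against 7.01 and Rrm1 at 19.6 against 10.0. Top2a, by contrast, stood at 4.98 against 4.62. At equal depth, with each cell given 1000 UMIs, Cenpa (1.85), Cenpf (1.07), Kif23 (1.10), Cdk1 (0.70), Rrm1 (0.80) and Mcm6 (1.15) remained called among the 13 members that could still be tested.

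Of the members lower in border macrophages, Birc5 stood at 5.36, 3.05, 9.78 and 6.53 CPM, against 6.19, 5.73, 11.4 and 7.12 in microglia (-0.46 ± 0.17, edgeR adjusted p = 0.0303). Tk1 stood at 2.27, 3.81, 6.75 and 5.93 CPM (-0.86 ± 0.24, edgeR adjusted p = 0.00514). Cdca3, a factor for mitotic entry, was lower as well (-0.61 ± 0.22, edgeR adjusted p = 0.0265). Each was below microglia in 4 of 4 libraries. On library totals Birc5 (edgeR adjusted p = 0.12) and Cdca3 (edgeR adjusted p = 0.0782) did not pass, and the count of lower members ran from 0 to 6 over the alternatives.

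In endothelial sums 28 of 39 members were higher than in microglia, and 6 were with barcodes over 15000 UMIs left out. In all sums 28 were higher and 1 lower (background 69.7%, 37.2% higher and 32.4% lower), with a median of 0.90. Cdc20 stood at 23.9, 14.7, 17.4 and 19.4 CPM in endothelial cells, against 4.73, 4.29, 7.74 and 3.35 in microglia (1.96 ± 0.22, edgeR adjusted p = 4.24e-07). Ccne2, a cyclin of the G1 to S transition, stood at 10.7, 11.6, 6.26 and 9.08 CPM, against 1.30, 1.68, 1.88 and 1.97 (2.51 ± 0.28, edgeR adjusted p = 4.07e-07). Dut stood at 23.9, 26.3, 32.0 and 29.7 CPM (1.57 ± 0.11, edgeR adjusted p = 1.62e-09). Kif23 stood at 21.1, 11.6, 10.4 and 27.2 CPM (2.10 ± 0.22, edgeR adjusted p = 2.14e-07). The endothelial values of these 4 genes were above the microglia of each library.

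The other endothelial calls above microglia among G2/M members were Ccna2 (1.67), Tpx2 (1.61), Ube2c (1.34), Knstrn (1.32), Aurka (1.20), Kif11 (1.16), Ccnb2 (1.12), Top2a (1.09), Birc5 (1.07), Cenpa (0.98), Cdca8 (0.84), Cdca3 (0.73), Hmmr (0.67) and Cdk1 (0.60), all as log2 differences. Among S-phase members they were Uhrf1 (1.80), Pclaf (1.45), Rrm2 (1.41), Mcm6 (1.22), Mcm2 (1.03), Hells (0.90), Clspn (0.81), Lig1 (0.79), Rrm1 (0.73) and Tyms (0.39). Mcm3 was lower (-0.53 ± 0.20, edgeR adjusted p = 0.0245).

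The 10 endothelial cells richest in G2/M UMIs held 81.0%, 75.4%, 63.9% and 81.9% of the class's G2/M UMIs in the 4 libraries. Endothelial barcodes reached 98437, 162785, 46782 and 105692 UMIs, while the highest microglial barcode had 17766. Barcodes over 15000 UMIs numbered 55, 25, 10 and 30 and held 89.9%, 80.8%, 32.7% and 86.2% of the G2/M UMIs. In them G2/M genes summed to 545, 296, 498 and 444 CPM, and in the other endothelial cells to 88.8, 80.02, 215 and 94.7 CPM. Their endothelial markers summed to 12565, 13478, 11190 and 15109 CPM, and their microglial markers to 1995, 1366, 835 and 661 CPM, both below those of the remaining endothelial cells. With these barcodes left out, an alternative chosen after seeing the data, 6 members were higher (Ccne2 1.46, Dut 1.07, Mcm6 1.04, Kif23 1.01, Cdc20 0.91 and Hells 0.91) and 3 lower (Mcm3, Ccnb1 and Pimreg), and the median over the members was -0.17. At equal depth, where 13 members could be tested, Mcm6, Hells and Dut were higher.

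**Figure D4:**
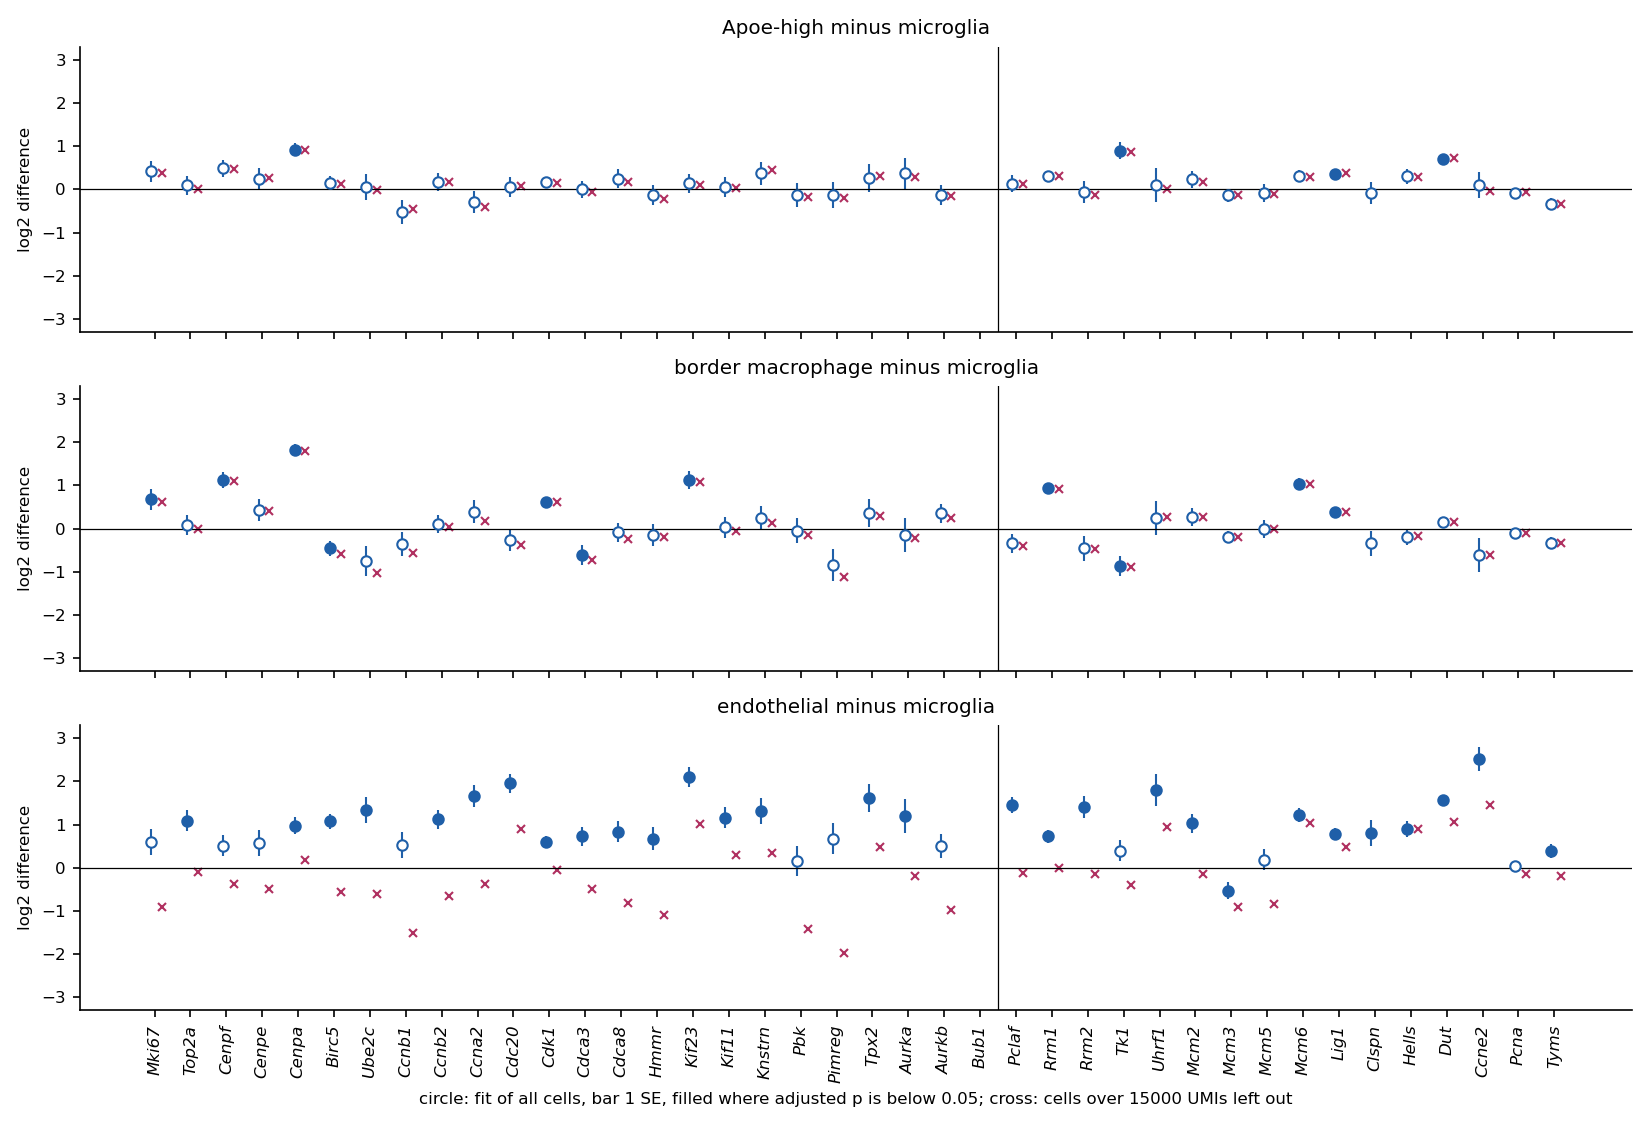
Log2 difference from microglia (y axis) of each gene in Apoe-high cells, border macrophages and endothelial cells; circles with 1 SE bars are the edgeR fit over all cells of 4 libraries, filled where the adjusted p is below 0.05, and crosses the fit without cells over 15000 UMIs. Circles and crosses lie close together for the filled genes of the first 2 panels, where Cenpa stands at 0.92 and 1.81. In border macrophages Ube2c (-1.03) and Pimreg (-1.12) were called only in the second of these fits. In the endothelial panel circles and crosses part, and Top2a moves from 1.09 to -0.09. Fits that left a gene untested have no mark, as for Bub1.

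Other cell cycle genes, in lists that hold no member, were read the same way. Over all kept cells 3 of 26 other mitotic genes were higher in Hevin libraries and 0 lower, where 6.85% of all genes were higher and 4.3% lower. They were Smc4, a condensin subunit (0.55 ± 0.09, edgeR adjusted p = 0.0113), Anln, an actin-binding protein of the cleavage furrow (0.93 ± 0.13, edgeR adjusted p = 0.00624), and Bub1b, a checkpoint kinase (0.73 ± 0.17, edgeR adjusted p = 0.042). All 26 values were positive, with a median of 0.43. Of 25 other replication genes 0 passed, with 25 positive values (DESeq2 called 0). Of them 7 had an unadjusted edgeR p under 0.05, as had 4611 of all 19119 genes. Of 11 G1 cyclins and kinases, 1 was higher: Ccnd2, the D-type cyclin D2, stood at 16.5, 17.8, 42.9 and 39.7 CPM (1.39 ± 0.09, edgeR adjusted p = 0.0003). Of 17 inhibitors 0 passed (3 at an unadjusted p under 0.05; DESeq2 called 1). Of 18 cell cycle transcription factors, 1 was higher: E2f1, at 6.69, 6.81, 10.3 and 9.47 CPM (0.67 ± 0.12, edgeR adjusted p = 0.0155). DESeq2 called 2 of the 11 G1 cyclins and kinases and 4 of the 18 transcription factors, counted in either direction.

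D-type cyclins link growth signals to the cycle. Ccnd2 stood at 6.34, 2.71, 8.29 and 5.55 CPM in microglia and 36.8, 7.63, 52.9 and 58.7 in Apoe-high cells, a log2 difference of 3.10 ± 0.26 (edgeR adjusted p = 7.22e-08), and it was also higher in border macrophages (0.96 ± 0.35, edgeR adjusted p = 0.0272). Within Apoe-high cells Ccnd2 was 1.22 ± 0.32 higher in Hevin libraries (edgeR adjusted p = 0.0463), where 2.64% of all genes were higher. DESeq2 called 0 of the G1 cyclins and kinases there. The mCherry side held 124 and 54 cells with higher border macrophage markers, and its values of 36.8 and 7.63 CPM lay far apart. Ccnd3 was lower in Apoe-high cells (-0.40 ± 0.09, edgeR adjusted p = 0.00157) and in border macrophages (-0.39 ± 0.08, edgeR adjusted p = 0.00069). Ccnd1 did not differ detectably between Apoe-high cells and microglia (0.05 ± 0.12, edgeR adjusted p = 0.802). Cdk6, a partner of these cyclins, was lower in Apoe-high cells (-1.07 ± 0.12, edgeR adjusted p = 1.79e-06). Cdk4, the other partner, was higher (0.21 ± 0.07, edgeR adjusted p = 0.0241). Of 17 inhibitors, 8 were lower and 1 higher in Apoe-high cells, where 17.5% of all genes were lower and 18.2% higher. Cdkn1a stood at 36.9, 31.1, 47.8 and 33.9 CPM in microglia and 33.3, 19.1, 18.7 and 17.2 in Apoe-high cells (-1.07 ± 0.15, edgeR adjusted p = 3.46e-05), and the antiproliferative factors Btg1 and Btg2 (-0.29 and -0.62) and the atypical cyclin Ccng2 (-0.68) were lower by the same test. Rb1, the retinoblastoma protein, was higher (0.33). Border macrophages had 8 inhibitors lower and 5 higher, where 29.4% of all genes were lower and 28.8% higher, with Cdkn1a at -0.85 ± 0.14 (edgeR adjusted p = 7.33e-05).

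E2f1, the activator of S-phase genes, stood at 4.71, 4.65, 6.41 and 5.97 CPM in microglia, 14, 15.3, 11.5 and 9.96 in Apoe-high cells (1.06 ± 0.19, edgeR adjusted p = 0.000324) and 20.8, 23.1, 19.2 and 24.3 in border macrophages (1.91 ± 0.17, edgeR adjusted p = 6.69e-08). Of 25 other replication genes, 7 were higher and 1 lower in Apoe-high cells (18.2% and 17.5% of all genes). In border macrophages 9 were higher and 4 lower (28.8% and 29.4% of all genes), near the background. Dnmt1, the maintenance methyltransferase, was higher in both (0.31 and 0.84), as were Pola1, the catalytic subunit of DNA polymerase alpha (0.68 and 1.43), and Atad2, a chromatin ATPase (0.42 and 0.65). Foxm1 and Mybl2, factors of the mitotic programme, stood at or below 0.514 and 1.14 CPM over all kept cells and did not differ detectably between groups (edgeR adjusted p = 0.828 and 0.689). A direction was not detectable for them at this depth.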

How the data were processed

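The deposited files held whole-number UMI counts per gene and barcode for each library, per the file headers, and build mm10 is named in the submitters' processing notes. For the aligner, counter, annotation, strand setting and cell calling no source used here gives a name, so overlapping or antisense genes could share counts. Barcodes with at least 500 UMIs, 300 genes and at most 10% mitochondrial counts were kept. Each cell was thinned to 1000 UMIs (336 shallower cells of Hevin replicate 1 were left out of shares) and classed by summed marker UMIs, with bounds set after the marker distributions had been seen. Cells with markers of 2 classes were left out of the classes. Scrublet called 0.00561% and 0.00922% of mCherry cells doublets, against 1.38% and 2.1% of Hevin cells, and was not used.

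Raw counts were summed per library and class and tested with edgeR 4.0.16 (TMM, filterByExpr, quasi-likelihood test, 2 libraries a group), with Benjamini-Hochberg adjustment over all genes tested and a threshold of 0.05; class contrasts had the library as a term. In simulated data 200 genes were given a log2 change of 1. For microglia (17178 genes) 99.5% of them were recovered with 8.29% false calls. For Apoe-high cells against microglia (13183 genes) 100% were recovered with 4.31% false calls. The members' median log2 difference between groups in microglia was 0.37, and changes of that size were not simulated. Recovery was not read separately at the members' expression levels, so these rates do not measure the power to call members. Printed CPM are per library total, without TMM. DESeq2 1.42.0, other scaling, no low-count filter, other gates, thinning depths and bounds, and leaving out each library were alternatives. Software was Python 3.11.15, scanpy 1.11.5 and R 4.3.3. The members and gene lists were chosen with earlier results of these data known. Named were the members past the threshold or highest in their role group, up to 3 called genes of the highest CPM per direction and list, and Cdkn1a, Ccnd1, Ccnd2, Ccnd3, Foxm1, Mybl2 and E2f1; the other members given with values, among them Aurkb, Kif11, Tpx2 and Aurka, were chosen after their values were seen. Intervals and floors (3 counts) cover counting error only.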

Additional observations from a re-analysis of the deposited data

Results flagged for a closer look

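The Hevin difference of Cenpa was unlike in the 2 main macrophage classes by a test of that difference: the interaction for Apoe-high cells against microglia was -1.09 on the log2 scale (edgeR quasi-likelihood test, Benjamini-Hochberg adjusted p = 0.0151). The median interaction over all genes was 0.18. For Cenpa it was -0.37 without mCherry replicate 1. DESeq2 did not call it, nor was it called with the stricter gate, with the top 5% of doublet scores removed or at equal depth. The mCherry side of the Apoe-high class held 124 and 54 cells with higher border macrophage markers than the Hevin side, and Cenpa was higher in border macrophages than in microglia in 4 of 4 libraries. The Apoe-high cells of mCherry replicate 1 also carried more MHC class II transcripts than those of the other libraries. The part of these markers in the result was not tested.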

How the results depend on the processing

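Over all kept cells the direction of the 13 called members held under every alternative run, with 142 single-gene values past the threshold and 14 not. The count called ran from 8 to 17 with 1 library left out (8 without Hevin replicate 1, 17 without Hevin replicate 2). Library totals without TMM moved the median over all genes from 0.00 to -0.11 over all kept cells, from 0.07 to -0.12 in Apoe-high cells, from -0.01 to 0.12 for border macrophages against microglia and from 0.18 to -0.03 for the Apoe-high interaction. Within classes, the counts of members higher in Hevin libraries became 2 in microglia, 3 in Apoe-high cells and 4 in border macrophages with no low-count filter, and 1 in Apoe-high cells with doublet scores removed, the stricter gate or the looser gate; 1 was lower there with the looser gate. With 1 library left out they ran from 0 to 1 in microglia and 0 to 2 in border macrophages, and the lower ones from 0 to 1 in Apoe-high cells and in border macrophages.

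For Apoe-high cells against microglia the higher count ran from 2 to 5 with 1 library left out, and was 2 at equal depth and 1 in the mCherry libraries only; 1 member was lower with no filter, library totals in place of TMM, doublet scores removed, the stricter gate and at equal depth. For border macrophages the lower count was 6 with no filter or doublet scores removed, 5 without cells over 15000 UMIs, 1 with the stricter gate, at equal depth and on library totals, 0 in the Hevin libraries only, and 1 to 4 with 1 library left out. For endothelial cells the higher count was 6 without cells over 15000 UMIs, 3 at equal depth and 15 in the Hevin libraries only; the lower count was 3 and 0 under the first 2 of these and 0 to 1 with 1 library left out. The interaction in Apoe-high cells had 0 members lower with DESeq2, doublet scores removed, the stricter gate and at equal depth, 0 to 1 with 1 library left out, and 1 higher with doublet scores removed.

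Endothelial values turned negative without cells over 15000 UMIs for Top2a (-0.0897), Birc5 (-0.55), Ube2c (-0.62), Ccnb2 (-0.65), Ccna2 (-0.38), Cdk1 (-0.0605), Cdca3 (-0.50), Cdca8 (-0.82), Hmmr (-1.09), Aurka (-0.19), Pclaf (-0.11), Rrm2 (-0.15), Mcm2 (-0.14) and Tyms (-0.20), at equal depth for Top2a (-0.0739) and Tyms (-0.0313), and in the Hevin libraries only for Hmmr (-0.18). The cause was not tested.

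Differences in shares, Hevin minus mCherry in percentage points, changed sign as follows. Without thinning they were -0.833 and -0.146 for G2/M genes in border and endothelial cells, and -0.939, -1.57 and -2.46 for S-phase genes in all cells, microglia and Apoe-high cells. For S-phase genes a bound of 2 UMIs gave -0.782 in Apoe-high and 1.05 in border cells, and one of 5 UMIs -0.203 in Apoe-high and 0.541 in endothelial cells; the latter bound gave -0.110 for G2/M genes in endothelial cells. Thinning to 500 UMIs gave 0.0051 in border and 0.690 in endothelial cells, thinning to 2000 UMIs 1.09 in border cells, and the looser gate -0.276 in Apoe-high cells. With 1 library left out the S-phase difference ran from -0.0217 to 0.166 over all cells, -0.274 to 0.533 in Apoe-high cells, -0.354 to 0.240 in border macrophages and -0.772 to 0.375 in endothelial cells, and the G2/M difference over all cells from 0.452 to 0.472. The size of that G2/M difference depended on depth. In library order the shares were 0.449%, 0.433%, 0.758% and 0.690% at 500 UMIs, and 1.03%, 1.05%, 1.81% and 1.59% at 2000 UMIs. At 2000 UMIs only 11803 of the 19653 kept cells of Hevin replicate 1 were deep enough to be counted, while the other libraries kept all of theirs. Its 1.81% is thus a share of its deeper cells.

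With the replicate number as a block 21 members were higher over all kept cells and 3 in border macrophages. Same-numbered libraries deviated together (r of 0.357 over all cells, 0.435 in microglia, 0.248 in border macrophages and 0.245 in endothelial cells), but with 2 libraries a group they share only a number. The looser gate, the limit of 15000 UMIs, the sums at equal depth and the library totals without TMM were chosen after seeing the data. Gates do not apply to the sums over all kept cells.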
